A study of Homo sapiens with 4 samples.

Results

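Readthrough genes are annotated transcription units that begin in one gene and end in the next gene on the same strand, and they carry the names of both neighbours joined by a hyphen. They were chosen here by the form of the symbol alone: exactly 1 hyphen, both parts of at least 3 characters and starting with a letter, at least 1 part present as a gene of its own, and no antisense, intronic or overlapping-transcript suffix. By this rule 103 of the 25283 genes of the count table were readthrough genes, and 88 of them had both parents in the table. RNA-seq was available from 4 libraries. The U1_OE group held 2 libraries of H1-derived neurons that had received a lentiviral vector for overexpression of U1 snRNA for 36 h, and the control group, labelled WT, held 2 libraries of the same kind of neurons with an empty vector. H1 is an established human embryonic stem cell line, and in both groups it had been taken to neurons through neural progenitors with commercial media. The treatment text of the control samples also names the overexpression vector, so the grouping rests on the titles and genotype labels. No label states that replicates were separate cultures. The p-values below therefore rest on a spread between libraries that may be technical. U1 snRNA itself was not analysed here, and its overexpression is therefore unchecked.

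U1 snRNA is the RNA of the small nuclear particle that recognises the 5′ splice site, where it pairs with the last exon bases and the first intron bases. The U1 particle also protects nascent transcripts from premature cleavage and polyadenylation at sites inside the gene. A readthrough RNA forms when the polymerase passes the poly(A) site of the upstream gene, transcribes on into its neighbour, and a 5′ splice site of the upstream gene is spliced to a 3′ splice site of the downstream gene. Its exons are therefore largely those of its parents, and only reads across the join or in exons of its own belong to it alone.

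The annotation bore out most of the names. All 103 symbols were in the RefSeq gene table, which lists 68 as protein coding, 34 as long non-coding RNAs and 1 as a transcribed pseudogene. In GENCODE release 29 (GRCh38) 94 were matched, and 93 of these, all but TIMM23B-AGAP6, had a transcript tagged as readthrough. Both parents were placed on the member's chromosome and strand in 93, all but BORCS7-ASMT, whose second-named parent was not. In all 93 the first-named parent lay upstream, and 92 members overlapped both parents, TIMM23B-AGAP6 being the exception. The parents were close: the median distance between them was 4705 bases, it was under 10000 bases in 64 of 93 pairs, and the parents overlapped in 10. The widest distance was that of IQCJ-SCHIP1, whose parents lie 573553 bases apart in GENCODE, and the next was the 108016 bases of ARMCX5-GPRASP2. The exons of a readthrough gene that neither parent covers amounted to a median of 95 bases, or 3.24% of its exonic length, and 30 of 93 had no such base. A direct splice join between an exon of the upstream gene and an exon of the downstream gene was annotated in 84 members. Where a member had several, 1 was taken: the join in the most transcripts and, at a tie, the join with the longest intron. Its donor was also a donor of the upstream gene in 67, its acceptor was also an acceptor of the downstream gene in 75, and both held in 60.

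The joins of the members that the results below turn on are shown, since reads across a join belong to the readthrough gene alone. Some of these genes have no exonic base outside their parents. Only the join taken above is shown: KLRC4-KLRK1 has 3 direct joins, and RPL36A-HNRNPH2, BORCS8-MEF2B and ST20-MTHFS have 2 each. Each line gives 15 bases before and 15 bases after the join, from the GENCODE transcripts, with the downstream side in capitals.
BCL2L2-PABPN1: agcagtgggggctggGAGCTGGAAGCTATC
RPL36A-HNRNPH2: attttccggaaaaagCTACACCAAAATTGC
BORCS8-MEF2B: cctccgccaacccagACAAAGATCATTCCA
RNASEK-C17orf49: cgcaaggaatacatgGTCGGAGAGATCTTC
KLRC4-KLRK1: aatgaggaagaaatgGAATCCTTTGTGCAT
TVP23C-CDRT4: acagtaaagtggctgGAATCTGAACCTGTG
ST20-MTHFS: gtctcccaggttcagGTGATTGCCCACAGT
NME1-NME2: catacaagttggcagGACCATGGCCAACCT
IQCJ-SCHIP1, leaving IQCJ: gacagcagcacacccGATTACCGAGAGGAT
IQCJ-SCHIP1, entering SCHIP1: accaactccacctccGCACAGAAAAATGAG

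In the GENCODE annotation of IQCJ-SCHIP1 there is no direct join. An exon of 696 bases that belongs to neither parent in GENCODE lies between, and both of its joins are shown. RefSeq starts SCHIP1 further upstream, and whether this exon is part of SCHIP1 there was not tested. The bases that pair with U1 are the last lower-case ones. The last exon base at the donor was G in 66 of the 84 direct joins (78.6%), against 79.2% of all 292495 annotated donors. The last 3 bases were CAG in 23.8% of the joins, against 23.2% of all donors, and the last 2 bases were AG in 48.8% and 54.1%. These shares are a description, with no test, and the intronic side of the donors was not analysed here.

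The libraries were of similar depth, with 16713505 and 19057423 counts in U1_OE and 17061796 and 17636307 counts in control. Levels are given as CPM, counts scaled to library size with TMM factors. Locus shares are the counts of a readthrough gene in percent of its own counts plus those of its parents in the table. For 15 of the 103 members this sum leaves out a parent that is not in the table. Of the neuronal markers 19 of 24 were in the table and 10 of these reached 1 CPM in every library, while DCX, STMN2 and GAD2 were at 0 in at least 1 library. All 22 mesenchymal markers exceeded 10 CPM everywhere, and COL1A1, a collagen of fibroblasts and bone cells, was at 41457 and 39670 CPM in U1_OE and 29374 and 38311 CPM in control, so the markers go against the label "neuron". The neuronal list summed to 413 and 469 CPM in U1_OE, against 283 and 209 CPM in control. Much of this was TUBB3, a neuronal tubulin gene, at 264 and 338 CPM in U1_OE and 159 and 104 CPM in control; of the 13 tested neuronal genes 7 had a log2 fold change above 0 and 6 below, with 3 higher and 2 lower at an unadjusted p under 0.05. The mesenchymal list summed to 120603 and 113743 CPM in U1_OE, against 103094 and 116340 CPM in control, with 8 of its 22 genes higher at an unadjusted p under 0.05 and 0 lower. Of all tested genes 4.36% were higher and 4.72% lower by that rule. The part of these markers in the results below was not tested, and in bulk RNA fewer cells of a type and less RNA per cell cannot be told apart.

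Most readthrough genes held a small part of the counts of their loci. If reads in shared exons were divided between genes, these values depend on that division. Their median level over the 4 libraries was 1.77 CPM, against 15.8 CPM for the 191 parents, and per kilobase of exon 0.591 CPM against 3.84 CPM. Their counts together made up 0.0565% and 0.0598% of all counts in U1_OE, and 0.0503% and 0.0544% in control. The groups did not overlap in this sum, but 2 libraries against 2 cannot go below an exact two-sided permutation p of 0.333. Without RPL36A-HNRNPH2, the most abundant member, the sums were 0.0491% and 0.0488% in U1_OE and 0.0462% and 0.0476% in control, and the difference was smaller. The median locus share was 3.18% and 3.31% in U1_OE, between the control values of 2.79% and 3.64%. In 23 members the mean share was under 1%, in 11 it was over 30%, and in 3 it was over 50%.

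Of the 103 readthrough genes, 69 had enough counts to be tested. The other 34 had mean levels of 0.0560 to 0.526 CPM, and 25 of them were at 0 in at least 1 library. With edgeR's quasi-likelihood test and Benjamini-Hochberg adjustment over all 17317 tested genes, 0 readthrough genes were called at an adjusted p under 0.05, as were 0 genes in all (0.0% called), and the lowest adjusted p of a member was 0.459. At an unadjusted p under 0.05, 9 of the 69 members stood out (13.0%), against 9.08% of all tested genes. Of these, 6 were higher in U1_OE, where the background was 4.36%, and 3 were lower, where it was 4.72%. DESeq2 called 3 of 67 members against 189 of 17440 genes (1.08%), namely IQCJ-SCHIP1 and BORCS8-MEF2B as higher (0.614% of all genes) and TIMM23B-AGAP6 as lower (0.47%), and limma-voom called 0. Both U1_OE libraries were above both control libraries in 12 members and below both in 11, out of 69, against 19.7% and 22.1% of all tested genes. The median log2 fold change, U1_OE over control, was 0.05 over the 69 members and -0.01 over all tested genes, with 38 members above 0 and 31 below. The sign of the members' median was not stable: it was -0.03 without U1_OE replicate 2 and 0.11 without control replicate 1. A log2 fold change of more than 1 in size was seen in 13 members (18.8%), against 10.3% of all tested genes and 6.18% of the tested parents. The counts were unlike: the median of mean counts was 31.1 over the 103 members, 279 over the 191 parents and 43.5 over all genes. The part of counts in these percentages was not tested.

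**Figure D1:**
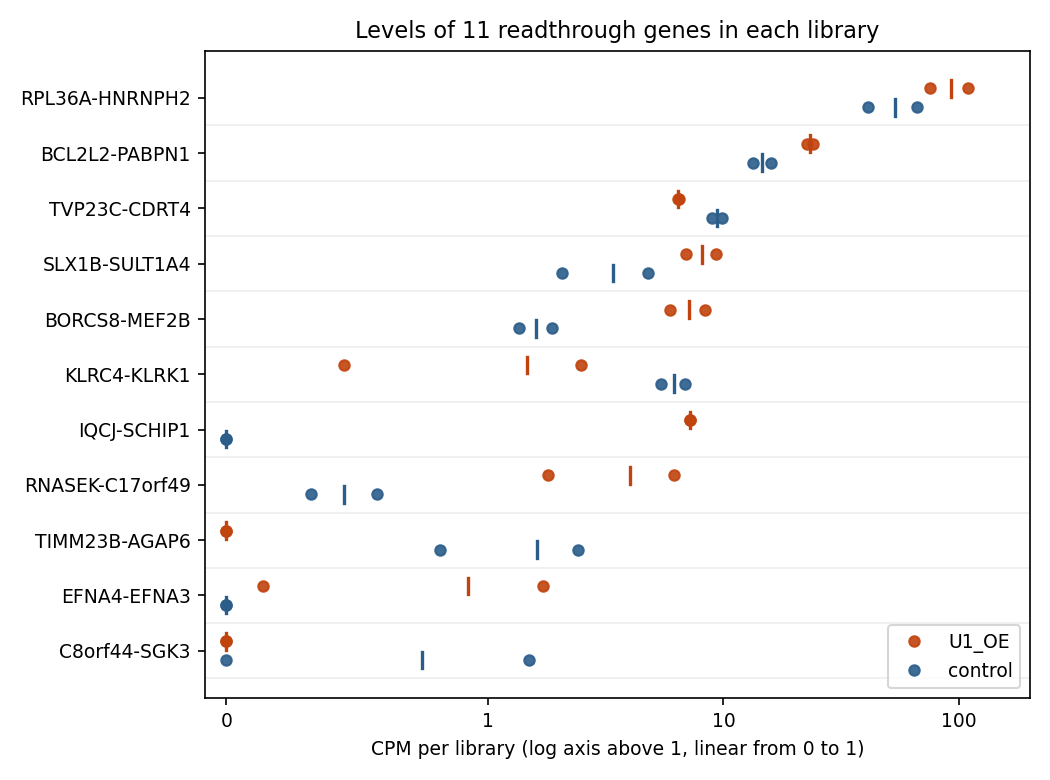
Levels (CPM) of the 11 readthrough genes with an unadjusted p under 0.05, or without a count in either library of a group while the other group averaged 10 counts or more. Each point is a library (U1_OE in the upper row of each pair, control in the lower), the short vertical lines are group means over 2 libraries, and the axis is logarithmic above 1 CPM and linear below; IQCJ-SCHIP1 lies at 7.23 and 7.18 CPM in U1_OE and at 0 in both control libraries.

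The member with the smallest p was IQCJ-SCHIP1 (ENSG00000283154, chr3:158962235-159897366, plus strand). SCHIP1 encodes a cytoskeleton-associated protein that binds schwannomin, and the joined product is a known component of axon initial segments and nodes of Ranvier. IQCJ-SCHIP1 had 7.23 and 7.18 CPM in U1_OE, which are 117 and 137 counts, against 0 counts in both control libraries. The U1_OE libraries agreed closely, and no control library held a count. Against a floor of 3 counts per library the level was at least 42.1-fold higher in U1_OE, a bound that covers counting error only. The edgeR adjusted p was 0.459 and the DESeq2 adjusted p was 2.64e-06, and DESeq2 also called it with any 1 of the 4 libraries left out (adjusted p of 0.000128 to 0.0110). Those fits have a group of 1 library, which is assumed to vary like the other group, so they say little of the spread between replicates.

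In SCHIP1 itself the groups overlapped. SCHIP1 had 35.0 and 32.1 CPM in U1_OE and 41.2 and 27.8 CPM in control, so the U1_OE values lay between the control values (log2 fold change -0.04 ± 0.22 SE, edgeR adjusted p 0.976). IQCJ-SCHIP1 made up 17.1% and 18.3% of the counts of the locus in U1_OE and 0% in control; IQCJ was not analysed here. Which RNA these counts come from is uncertain. Of the 14 GENCODE transcripts of IQCJ-SCHIP1, 2 hold exons of both parents, 5 hold exons of IQCJ alone, 5 of SCHIP1 alone and 2 of neither. In GENCODE the joining introns are chr3:159262684-159764442 and chr3:159765139-159866162, and 53.8% of the exonic bases lie outside both parents. RefSeq starts SCHIP1 further upstream than GENCODE does. Which transcript these counts come from therefore depends on the annotation, and the release the authors used is not known.

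BORCS8-MEF2B (ENSG00000064489, chr19:19145567-19192158, minus strand) joins BORCS8, a subunit of a complex that positions lysosomes, to MEF2B, a MADS-box transcription factor, across the intron chr19:19150765-19180685. BORCS8-MEF2B had 8.37 and 5.95 CPM in U1_OE, against 1.86 and 1.35 CPM in control. The groups were well apart, with a log2 fold change of 2.15 ± 0.36 SE, an edgeR adjusted p of 0.459 and a DESeq2 adjusted p of 0.0376. The DESeq2 call was lost when any of the 4 libraries was left out (adjusted p of 0.261 or more). The parents differed less: BORCS8 had 30.9 and 30.6 CPM in U1_OE and 21.9 and 25.4 CPM in control, and MEF2B had 0.409 and 3.003 CPM in U1_OE and 3.01 and 3.24 CPM in control. BORCS8 was thus higher in both U1_OE libraries (log2 fold change 0.38 ± 0.15 SE, edgeR adjusted p 0.554), while MEF2B was lower in both, mostly in 1 library. The locus share of the readthrough gene was 21.1% and 15.04% in U1_OE, against 6.96% and 4.49% in control.

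RNASEK-C17orf49 (chr17:7012635-7017520, plus strand) joins RNASEK, a small ribonuclease gene, to C17orf49 across the intron chr17:7014278-7015061, the shortest among the direct joins taken. RNASEK-C17orf49 had 6.19 and 1.80 CPM in U1_OE, against 0.324 and 0.574 CPM in control. The U1_OE libraries differed from each other more than the control libraries did, and the log2 fold change was 3.10 ± 0.78 SE (edgeR adjusted p 0.459, DESeq2 adjusted p 0.0975). It was 1.97 without U1_OE replicate 1 and 3.74 without U1_OE replicate 2. Even so it stayed a small part of its locus, at 1.24% and 0.433% in U1_OE and 0.0617% and 0.136% in control, beside RNASEK at 426 and 365 CPM in U1_OE and 464 and 350.5 CPM in control.

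BCL2L2-PABPN1 (ENSG00000258643, chr14:23306835-23325369, plus strand) joins BCL2L2, which encodes an anti-apoptotic protein of the BCL2 family, to PABPN1, the nuclear poly(A)-binding protein, across the intron chr14:23308200-23322180. BCL2L2-PABPN1 had 22.6 and 24.0 CPM in U1_OE, against 16.0 and 13.3 CPM in control. Both groups were tight and did not overlap (log2 fold change 0.67 ± 0.17 SE, edgeR adjusted p 0.459). The downstream parent lay the other way: PABPN1 had 136 and 117 CPM in U1_OE and 152.5 and 152 CPM in control (log2 fold change -0.27 ± 0.14 SE, edgeR adjusted p 0.638). BCL2L2 had 20.95 and 21.2 CPM in U1_OE and 17.7 and 19.2 CPM in control. The readthrough share of the locus was 12.6% and 14.8% in U1_OE, against 8.57% and 7.21% in control.

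RPL36A-HNRNPH2 (ENSG00000257529, chrX:101391011-101412297, plus strand), the most abundant member, joins RPL36A, a protein of the large ribosomal subunit, to HNRNPH2, an RNA-binding splicing regulator, across the intron chrX:101391823-101411935. RPL36A-HNRNPH2 had 75.7 and 109 CPM in U1_OE, against 41.1 and 66.2 CPM in control. The groups did not overlap, but the lower U1_OE library was close to the higher control library (log2 fold change 0.79 ± 0.30 SE, edgeR adjusted p 0.547). RPL36A had 938 and 967 CPM in U1_OE and 898 and 802 CPM in control, and HNRNPH2 had 69.3 and 69.8 CPM in U1_OE and 73.1 and 76.3 CPM in control. The locus share, at 6.99% and 9.54% in U1_OE and 4.06% and 7.01% in control, overlapped between the groups by a narrow margin. All exonic bases of this gene are covered by its parents.

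KLRC4-KLRK1 was among the 3 lower members with an unadjusted p under 0.05. KLRC4-KLRK1 (ENSG00000255819, chr12:10372353-10410146, minus strand) joins KLRC4, a lectin-like receptor gene of natural killer cells, to KLRK1, which encodes the activating receptor NKG2D, across the intron chr12:10388876-10407635. KLRC4-KLRK1 had 0.448 and 2.49 CPM in U1_OE, against 5.43 and 6.86 CPM in control (log2 fold change -2.04 ± 0.78 SE, edgeR adjusted p 0.547). KLRC4 had 0.786 and 1.81 CPM in U1_OE, against 5.89 and 8.09 CPM in control. KLRK1 had 1.90 and 3.24 CPM in U1_OE, against 13.8 and 17.3 CPM in control, with a log2 fold change of -2.58 ± 0.33 SE. All 3 genes were below control in both U1_OE libraries, and DESeq2 called both parents (KLRC4 adjusted p 0.0490, KLRK1 adjusted p 4.6e-05) but not the readthrough gene (adjusted p 0.461). The size rested on the U1_OE libraries: the edgeR log2 fold change was -1.27 without U1_OE replicate 1 and -3.81 without U1_OE replicate 2. DESeq2 called the readthrough gene without U1_OE replicate 2 (adjusted p 0.0150), a fit in which the lone U1_OE library is assumed to vary like the control libraries, and did not call it when any other library was left out. The locus share of KLRC4-KLRK1, at 14.3% and 33.0% in U1_OE, lay on either side of the control values of 21.6% and 21.3%.

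TIMM23B-AGAP6 had 0 counts in both U1_OE libraries, against 2.40 and 0.817 CPM in control. TIMM23B is a copy of the gene for a mitochondrial import channel subunit, and AGAP6 belongs to a family of Arf GTPase-activating proteins. Against the floor of 3 counts per library the level was at least 9.41-fold lower in U1_OE (4.78-fold without control replicate 1), with an edgeR adjusted p of 0.459 and a DESeq2 adjusted p of 0.0481 that was lost when either U1_OE library or control replicate 2 was left out (adjusted p of 0.218 or more; without control replicate 1 DESeq2 gave none). Its parents did not go to 0: TIMM23B had 9.68 and 6.64 CPM in U1_OE and 8.74 and 9.21 CPM in control, and AGAP6 had 17.3 and 13.5 CPM in U1_OE and 11.8 and 10.97 CPM in control. The matched GENCODE entry holds no exon of the downstream parent, so its structure is uncertain.

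TVP23C-CDRT4 (ENSG00000259024, chr17:15436021-15563561, minus strand) joins TVP23C, a Golgi membrane protein gene, to CDRT4 across the intron chr17:15440286-15545784. TVP23C-CDRT4 had 6.49 and 6.39 CPM in U1_OE, against 9.88 and 8.93 CPM in control (log2 fold change -0.55 ± 0.20 SE, edgeR adjusted p 0.534). Both groups were tight, and TVP23C had 4.76 and 4.80 CPM in U1_OE and 5.95 and 5.29 CPM in control. The readthrough gene held most of the counts summed for its locus, 57.7% and 57.1% in U1_OE and 62.4% and 62.8% in control. CDRT4 was not analysed here and is not in this sum.

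**Figure D2:**
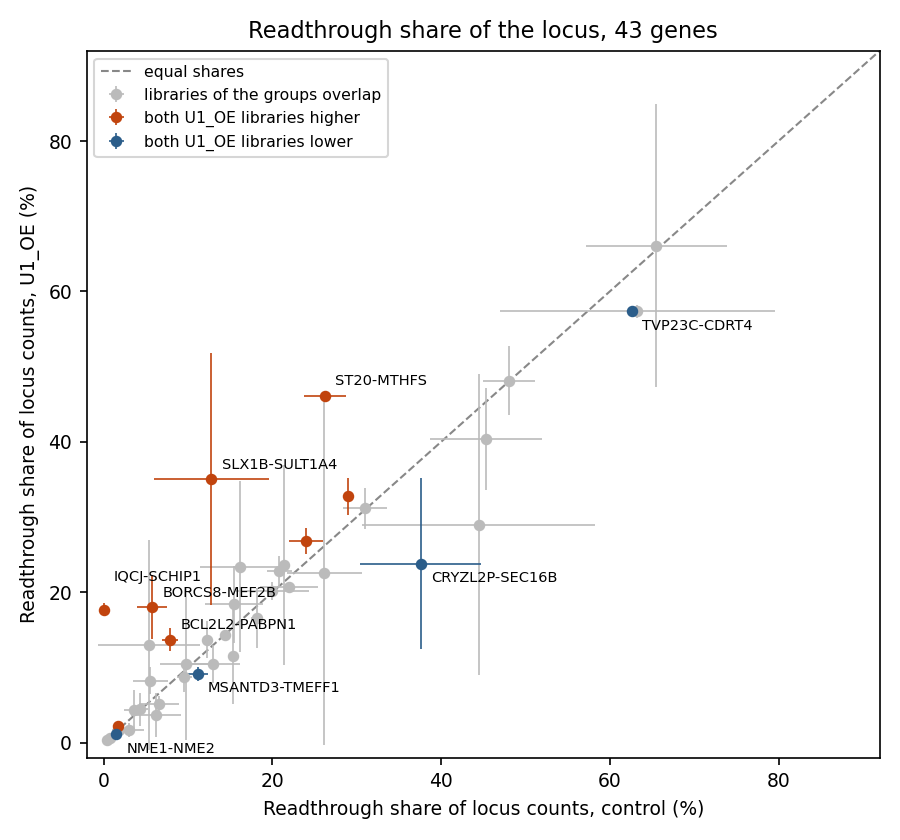
Mean share of locus counts held by the readthrough gene in U1_OE (vertical axis, %) against control (horizontal axis, %) for the 43 readthrough genes averaging 50 counts or more; bars are SDs over 2 libraries, the dashed line marks equal shares, and the genes with the largest differences among groups that do not overlap are named. ST20-MTHFS lies above the line, at 46.1% in U1_OE against 26.3% in control.

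The locus share sets each readthrough gene against its parents within a library. Among the 43 members averaging 50 counts or more over the 4 libraries, both U1_OE libraries had the higher share in 8. Both had the lower share in 4, and the groups overlapped in 31. Of the 8, IQCJ-SCHIP1, without a count in control, and BORCS8-MEF2B, with 31.6 and 24.4 counts in control, passed this limit through U1_OE. Of the 4, CRYZL2P-SEC16B had 38.8 counts in U1_OE replicate 1, and the others had more than 50 counts in every library. The 8 and the 4 are therefore no balance of directions. Genes without parents have no such share, so no background over all genes stands beside these counts. For 2 libraries against 2, groups without overlap have an exact two-sided permutation p of 0.333. The counts and the genes below are therefore a description with no test. The largest increase with tight replicates was that of ST20-MTHFS (ENSG00000259332, chr15:79845150-79923754, minus strand), which ends in MTHFS, the gene of a folate-metabolising enzyme. Its share was 45.8% and 46.5% in U1_OE, against 24.5% and 28.0% in control. Both sides of the ratio differed. ST20-MTHFS had 6.72 and 7.90 CPM in U1_OE and 4.95 and 4.82 CPM in control (log2 fold change 0.58 ± 0.23 SE, edgeR adjusted p 0.555), while MTHFS had 2.15 and 3.84 CPM in U1_OE and 8.77 and 6.14 CPM in control (log2 fold change -1.31 ± 0.39 SE, edgeR adjusted p 0.492). ST20 had 5.82 and 5.25 CPM in U1_OE and 6.52 and 6.24 CPM in control. The 3 genes together had 14.7 and 16.99 CPM in U1_OE and 20.2 and 17.2 CPM in control.

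NME1-NME2 (ENSG00000011052, chr17:51153590-51171744, plus strand) joins a pair of genes for nucleoside diphosphate kinases, the enzymes that balance the nucleotide pools, across the intron chr17:51161273-51166826. Its share was 1.11% and 1.16% in U1_OE, against 1.45% and 1.48% in control, a small difference between very tight pairs. NME1-NME2 had 25.4 and 27.8 CPM in U1_OE, against 33.1 and 30.6 CPM in control (log2 fold change -0.26 ± 0.14 SE, edgeR adjusted p 0.656). The upstream parent NME1 lay the other way, with 354 and 375 CPM in U1_OE and 259 and 228 CPM in control (log2 fold change 0.58 ± 0.14 SE, edgeR adjusted p 0.459), and DESeq2 called NME1 as higher (adjusted p 0.0381). NME2 had 1918 and 2007 CPM in U1_OE and 2000.2 and 1816 CPM in control.

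The remaining 3 higher shares were smaller differences. ARPIN-AP3S2 held 34.5% and 31.1% of its locus in U1_OE, against 28.7% and 29.2% in control. ISY1-RAB43 held 28.0% and 25.6% in U1_OE and 25.4% and 22.5% in control, and PEDS1-UBE2V1 held 2.38% and 2.04% in U1_OE and 1.76% and 1.71% in control; both were named after their values were seen. The remaining lower shares were those of CRYZL2P-SEC16B and MSANTD3-TMEFF1. CRYZL2P-SEC16B, whose downstream parent SEC16B encodes a protein of endoplasmic reticulum exit sites, held 15.8% and 31.8% of its locus in U1_OE, against 42.6% and 32.5% in control. CRYZL2P was not analysed here and is not in this sum. The nearer libraries of the groups were almost equal. MSANTD3-TMEFF1 held 9.86% and 8.52% in U1_OE, against 11.99% and 10.3% in control, although its own level overlapped between the groups (log2 fold change 0.20 ± 0.32 SE, edgeR adjusted p 0.887).

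The SLX1 and SULT1A genes lie in near-identical copies on chromosome 16, so their counts depend on how reads were split between the copies. SLX1 is the nuclease subunit of a DNA repair complex, and the SULT1A genes encode sulfotransferases. SLX1B-SULT1A4 had 9.26 and 6.95 CPM in U1_OE, against 4.76 and 2.05 CPM in control (log2 fold change 1.25 ± 0.46 SE, edgeR adjusted p 0.535), and 46.9% and 23.2% of its locus in U1_OE, against 17.6% and 7.96% in control. Leaving out control replicate 1 gave a log2 fold change of 2.004, and leaving out control replicate 2 gave 0.76. The other copy, SLX1A-SULT1A3, had 8.35 and 10.98 CPM in U1_OE, against 7.82 and 14.2 CPM in control. Summed over both copies the level was 17.6 and 17.9 CPM in U1_OE, against 12.6 and 16.3 CPM in control, and the groups came much closer.

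Among the most abundant readthrough genes several had nearly the same level in both groups. HNRNPUL2-BSCL2, which joins an RNA-binding protein gene to that of seipin, a lipid droplet protein, had 33.2 and 36.8 CPM in U1_OE and 32.3 and 36.5 CPM in control (log2 fold change 0.03 ± 0.15 SE). RPL17-C18orf32, which starts in a ribosomal protein gene, had 30.3 and 34.3 CPM in U1_OE and 34.9 and 27.6 CPM in control (log2 fold change 0.05 ± 0.18 SE). ARPIN-AP3S2, which joins the gene of an Arp2/3 inhibitor to that of an adaptor complex subunit, had 21.05 and 18.3 CPM in U1_OE and 21.2 and 20.8 CPM in control (log2 fold change -0.09 ± 0.16 SE). In these 3 genes the levels of the groups overlapped and the libraries of a group lay close together (edgeR adjusted p of 0.898 to 0.976). BOLA2-SMG1P6, whose upstream parent BOLA2 acts in iron handling, had 30.0 and 42.2 CPM in U1_OE and 32.2 and 24.2 CPM in control. ABCF2-H2BK1, which starts in the gene of an ATP-binding cassette protein, had 18.2 and 24.9 CPM in U1_OE and 16.6 and 13.9 CPM in control. Its parent ABCF2 was higher by as much, at 22.3 and 23.5 CPM in U1_OE and 16.5 and 16.4 CPM in control, so that the share of the readthrough gene overlapped between the groups. H2BK1 was not analysed here and is not in this share.

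In other abundant members the libraries of a group disagreed. RBM14-RBM4, which joins genes of RNA-binding proteins, had 30.9 and 5.44 CPM in U1_OE and 11.8 and 18.5 CPM in control. TMEM276-ZFTRAF1 had 22.9 and 2.69 CPM in U1_OE and 12.4 and 16.7 CPM in control. In both genes U1_OE replicate 1 was the highest of the 4 libraries and U1_OE replicate 2 the lowest. For RBM14-RBM4 the parents lay closer together: RBM14 had 18.5 and 18.8 CPM and RBM4 126 and 140.3 CPM in U1_OE, against 16.4 and 15.9 CPM and 126 and 119.7 CPM in control. For TMEM276-ZFTRAF1 they did too: TMEM276 had 13.98 and 11.3 CPM and ZFTRAF1 22.2 and 28.0 CPM in U1_OE, against 21.7 and 18.3 CPM and 19.7 and 22.0 CPM in control. FMC1-LUC7L2 ends in LUC7L2, a splicing factor gene whose yeast counterpart belongs to the U1 particle. FMC1-LUC7L2 had 22.7 and 11.8 CPM in U1_OE and 15.2 and 10.3 CPM in control, and POLR2J2-UPK3BL1 had 22.8 and 12.5 CPM in U1_OE and 18.8 and 16.2 CPM in control. The groups overlapped in both.

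**Figure D3:**
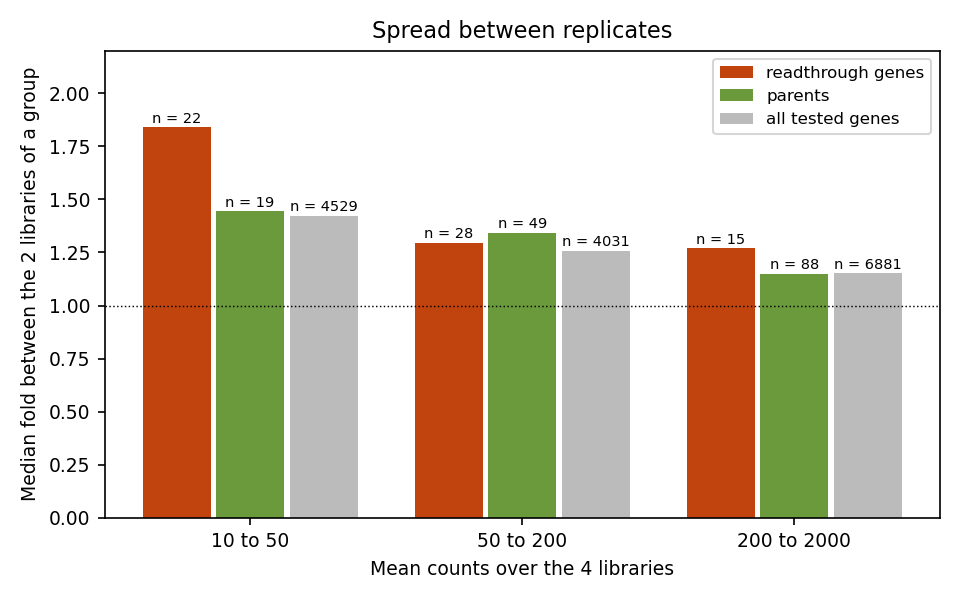
Median fold between the 2 libraries of a group (mean over both groups, on CPM + 0.5) for readthrough genes, their parents and all tested genes, in 3 classes of mean counts; the dotted line at 1 marks equal libraries and n is the number of genes. At 10 to 50 mean counts the median fold was 1.84 for the readthrough genes, against 1.44 for the parents and 1.42 for all tested genes.

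At mean counts of 10 to 50 the libraries of a group lay further apart for readthrough genes than for all tested genes, and at higher counts the difference was smaller. This is a description with no test, and within a class the counts were not matched further. At mean counts of 10 to 50 the libraries of a group differed by a median of 1.84-fold in the 22 readthrough genes, 1.44-fold in parents and 1.42-fold in all tested genes. At 50 to 200 the values were 1.30-fold, 1.34-fold and 1.26-fold, and at 200 to 2000 they were 1.27-fold, 1.15-fold and 1.15-fold. In the highest class 2 of 15 readthrough genes differed by over 2-fold, against 2.02% of all tested genes. Over the 65 members averaging 10 counts or more, the readthrough gene differed between replicates by a median of 1.39-fold and the sum of the locus by 1.12-fold. The locus was the steadier in 55. This comparison is not matched for counts: the sum adds the parents, whose median of mean counts was 279, against 31.1 for the members. A steadier sum is therefore no trait of readthrough genes.

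Counts of 0 were frequent. Of the 103 members 33 were at 0 in at least 1 library, 13 and 10 in the U1_OE libraries and 20 and 18 in the control libraries. In 18 members a library at 0 stood beside another with at least 10 counts. This happened within U1_OE in 3 members and within control in 9, so that the appearance or loss of a readthrough gene was also seen between replicates. EFNA4-EFNA3, which joins genes of ephrin ligands, had 1.71 and 0.139 CPM in U1_OE and 0 in both control libraries, at least 5.40-fold higher against the floor. That bound rests on U1_OE replicate 1, since U1_OE replicate 2 was under 3 counts. C8orf44-SGK3 had 0 counts in both U1_OE libraries and 0 and 1.499 CPM in control. Both were too low to be tested.

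**Figure D4:**
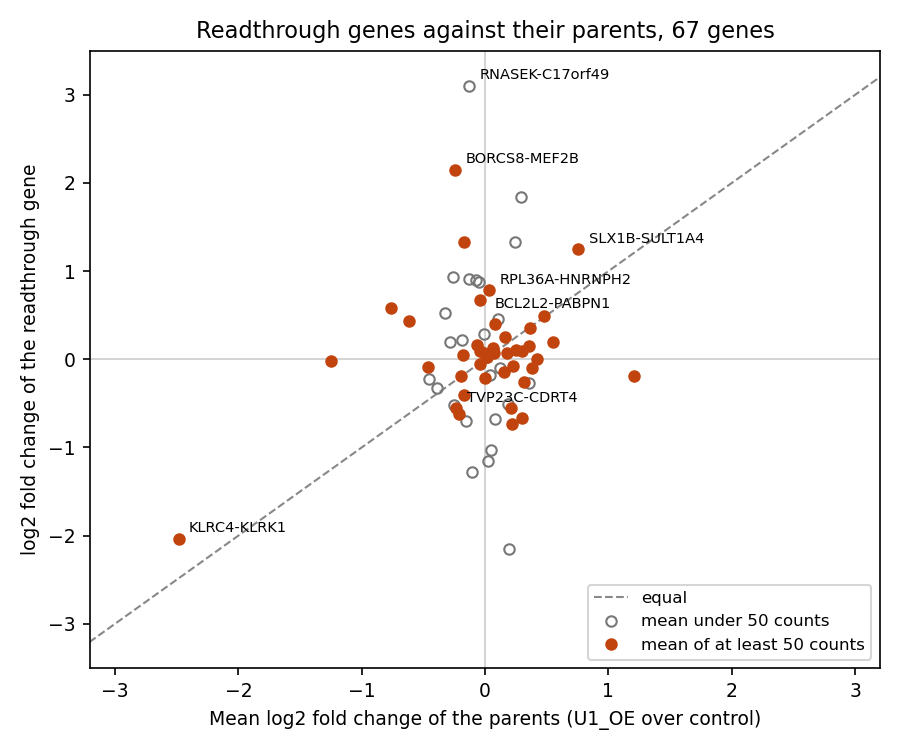
log2 fold change (U1_OE over control) of 67 tested readthrough genes against the mean log2 fold change of their parents; filled points average 50 counts or more, open points fewer, and the dashed line marks equal values. IQCJ-SCHIP1 and TIMM23B-AGAP6, with a group at 0, are left out; KLRC4-KLRK1 lies near the line at the lower left and BORCS8-MEF2B at 2.15 with parents near 0.

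Set against their parents, the readthrough genes had fold changes that were larger in size but centred near those of the parents. The median difference of log2 fold change, readthrough gene minus the mean of its parents, was 0.01 over 69 members (-0.07 without control replicate 1 and 0.13 without control replicate 2), and the signs agreed in 32 of 69. The readthrough genes had the larger fold changes: their median size was 0.40 on the log2 scale, against 0.19 for the mean of their parents. The member's was the larger in 45 of 69. Members had fewer counts, with a median of mean counts of 31.1 against 279 for the parents, and opposite signs of the parents cancel in their mean. The part of either in these sizes was not tested. Of the 178 tested parents edgeR called 0, and 14 had an unadjusted p under 0.05 (7.87%, against 9.08% of all tested genes), 5 higher and 9 lower. DESeq2 called KLRC4, KLRK1 and NME1.

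The split by annotation gave similar medians. The 48 tested protein-coding members had a median log2 fold change of 0.07 and the 21 tested long non-coding members one of 0.01. Members without an exonic base outside their parents had a median of 0.07 (22 tested). Those with 1 to 200 such bases had a median of 0.09 (20 tested), and those with more a median of -0.04 (22 tested). Such bases can lie in exons of other genes, and members whose parents were not both placed in GENCODE are in none of these classes.

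No gene of the machinery that ends transcripts was called, in tests that called few genes of any kind. edgeR called 0 of all 17317 tested genes and DESeq2 called 1.08%, so 0 calls in short lists say little of this machinery. Of 20 genes for cleavage and polyadenylation, 12 for transcription termination and 3 for proteins of the U1 particle, edgeR and DESeq2 called 0. None had an unadjusted edgeR p under 0.05, against 9.08% of all tested genes. SNRNP70, the U1-70K protein gene, had 257 and 257 CPM in U1_OE and 244 and 281 CPM in control. SNRPA had 44.2 and 48.8 CPM in U1_OE and 43.2 and 41.8 CPM in control, and SNRPC had 172 and 166 CPM in U1_OE and 168 and 147 CPM in control. Genes with small p-values among the others were FIP1L1 and CPSF6 of the cleavage machinery, with log2 fold changes of 0.28 and 0.28, and PPP1R10 of termination, with 0.54; their edgeR adjusted p was 0.565 or more. Of 10 genes of nonsense-mediated decay, which degrades RNAs with early stop codons, both tools called 0. At an unadjusted edgeR p under 0.05 there was 1 of the 10, SMG9 (log2 fold change 0.33 ± 0.13 SE, adjusted p 0.549), which is near the 9.08% of all tested genes.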

How the data were processed

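RNA-seq of 4 libraries was analysed as deposited. Per the labels' protocols, DNase-treated total RNA gave random-primed libraries, and the protocol names no step that marks the strand, which leaves genes that overlap or lie antisense uncertain. The tools named in the submitters' processing notes are STAR, featureCounts, Trim Galore and DESeq2, and the build is hg38, without versions or roles. The deposited values are estimated counts per gene, not normalised by the authors as far as the values show: 1.99% lie within 0.01 of a whole number, and no source used here says where the fractions come from. If reads were divided between genes, the values of a readthrough gene and its parents depend on that division.

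Values were rounded and tested with edgeR 4.0.16 (R 4.3.3): filterByExpr, TMM, quasi-likelihood test of U1_OE against control over all 17317 tested genes, Benjamini-Hochberg threshold 0.05. The standard error of a log2 fold change was derived from the fold change and its F statistic. DESeq2 1.42.0, limma-voom (limma 3.58.1), other scalings and filters, a replicate block and leaving out each library were alternatives. The fits were tested on simulated data with a common spread for all genes. There edgeR recovered 6% of 2-fold and 77% of 4-fold changes, with 3 false calls. DESeq2 recovered 6% and 75%, with 8 false calls. Real genes differ in spread, so these rates need not hold for the data, in which edgeR called 0 genes. A gene that is not called can therefore still differ between the groups. Totals of 16713505 to 19057423 counts limit precision for genes of a few CPM; a group at 0 was set against 3 counts per library. Replicate numbers were taken from the titles.

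The named members were the 12 most abundant, those with an unadjusted edgeR p under 0.05, those at 0 counts in both libraries of a group with a mean of at least 10 counts in the other, and up to 5 in each direction whose groups did not overlap in locus share, among members averaging 50 counts or more. The members, lists and rules were chosen with earlier results of these data known. Gene structures and join sequences came from GENCODE release 29, of the build named in the notes; no source used here names the release the authors used. A gene of the termination list is not reported here.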

Additional observations from a re-analysis of the deposited data

How the results depend on the processing

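Under edgeR, 0 readthrough genes were called with every alternative scaling, filter, block and left-out library run, and limma-voom also called 0. DESeq2 called 3 readthrough genes of 189 genes in all. With 1 library left out it called between 1 and 2 readthrough genes, and 55, 63, 145 and 322 genes in all. IQCJ-SCHIP1 was called by DESeq2 in each of these fits; the other calls were TMEM276-ZFTRAF1 without U1_OE replicate 1 and KLRC4-KLRK1 without U1_OE replicate 2, both as lower. Whether the numbers 1 and 2 pair the libraries of the groups was not settled. The deviations of U1_OE replicate 1 and control replicate 1 from their group means had a correlation of -0.11. With 2 libraries per group this cannot decide it. With the replicate block edgeR called 0 genes, as it did with the numbers crossed, and DESeq2 called 80 genes in all and 1 readthrough gene. The crossed pairing, the DESeq2 fits with a block or a library left out, and the sum without RPL36A-HNRNPH2 were chosen after seeing the data.

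The median log2 fold change of the readthrough genes was 0.0176 with library size alone, 0.0859 with DESeq2, 0.0137 with limma-voom and -0.0133 with the replicate block, and ranged from -0.0280 to 0.106 with 1 library left out. The median difference from the parents ranged from -0.0704 to 0.133 with 1 library left out. The U1_OE minus control difference of the summed share was 0.0235 percentage points with counts divided by exonic length and 0.00207 without RPL36A-HNRNPH2. That of the median locus share was 0.732 percentage points with counts divided by exonic length and 1.30 among members averaging 50 counts or more. The cause of these moves was not tested. The median level of 1.77 CPM and the 2 libraries per group limit the precision of every value.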
